A study of Mus musculus with 8 samples.

Results

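The genes described here are 10 mouse genes whose products bind, move or store iron or are secreted in the acute phase and at mucosal surfaces: Cp, Lcn2, Ltf, Hp, Saa3, Slpi, Tfrc, Slc40a1, Heph and Fth1. They are 10 of 19938 genes measured. Cp, Lcn2 and Ltf were chosen because their values were lower in co-cultured DA3 cells than in DA3 cells alone, so that difference is given for them as a description, and the other 7 are relatives named beside them. For each gene the probe set annotated with its symbol alone was used, and each of the 10 had 1 such probe set.

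RNA was measured on 8 Affymetrix MoGene ST arrays, 2 in each of 4 groups. MBA-15 is a mouse line of pre-osteoblastic stromal cells and DA3 a mouse mammary adenocarcinoma line. In MBA-15 co-culture and DA3 co-culture, DA3 cells had been seeded at 13000 cells per cm2 onto MBA-15 cells seeded the day before at 20000 per cm2, and were pulled out again with magnetic particles against EpCAM (CD326). MBA-15 alone and DA3 alone were kept at the same densities without the other line, per the labels, and all groups grew in medium with 10% fetal calf serum. The array descriptions give 24 h for all 8, while the growth protocol names a second duration as well. They call the MBA-15 arrays the EpCAM-negative and the DA3 arrays the EpCAM-positive fraction, and the descriptions of all 4 arrays labelled alone also carry the word mix, which they do not explain. The descriptions number the assays: assay 3 holds 1 array of each group, and assay 4 holds 1 of each group but DA3 co-culture. Assay 5 holds the other DA3 co-culture array. A fit with the assay number as a block therefore draws its DA3 co-culture values from the assay 3 array alone. Each group is 1 line, and nothing says that its 2 arrays came from separate cultures, so p-values measure the spread between these arrays, which may be technical.

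Iron circulates bound to transferrin and enters cells through the transferrin receptor, encoded by Tfrc. It is stored in ferritin, whose heavy chain Fth1 encodes, and it leaves through ferroportin (Slc40a1), helped by the copper oxidases ceruloplasmin (Cp, secreted or anchored at the surface) and hephaestin (Heph, membrane-bound). Lactoferrin (Ltf) binds iron itself and is a protein of milk and of mammary and other glandular epithelia. Lipocalin 2 (Lcn2) binds the siderophores with which bacteria take up iron, and Hp encodes haptoglobin, which binds free haemoglobin. Several of these genes, with serum amyloid A3 (Saa3) and the protease inhibitor Slpi, are induced by inflammatory cytokines, and C/EBP transcription factors are known regulators of acute-phase genes.

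RefSeq start-site windows of the GRCm38.p6 mouse assembly were read for the members, and 7 of the 10 matched a window. Those of the genes on which the results turn are printed 5′ to 3′ on the gene's own strand, to show the bases next to their starts; capitals mark the letters TTGCNNAA of the C/EBP motif, searched on both strands, which appear as TTNNGCAA when the match is on the other strand. For Lcn2 (chr2:32387740-32387989, minus strand), Ltf (chr9:111019042-111019291, plus strand) and Saa3 (chr7:46715677-46715926, minus strand) the 250 bases before the start are given, and for Cp 30 bases around the match (chr3:19957168-19957197, plus strand), because its second annotated start lies downstream of the first.
Lcn2: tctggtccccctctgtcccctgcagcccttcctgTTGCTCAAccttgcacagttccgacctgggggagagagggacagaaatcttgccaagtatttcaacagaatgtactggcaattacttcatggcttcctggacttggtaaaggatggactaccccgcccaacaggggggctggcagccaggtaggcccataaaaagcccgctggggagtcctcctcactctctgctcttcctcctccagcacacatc
Ltf: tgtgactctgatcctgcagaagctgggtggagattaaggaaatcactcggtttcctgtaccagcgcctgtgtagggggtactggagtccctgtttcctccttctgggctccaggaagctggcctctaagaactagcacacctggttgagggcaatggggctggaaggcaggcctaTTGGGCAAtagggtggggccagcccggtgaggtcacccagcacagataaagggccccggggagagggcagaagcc
Saa3: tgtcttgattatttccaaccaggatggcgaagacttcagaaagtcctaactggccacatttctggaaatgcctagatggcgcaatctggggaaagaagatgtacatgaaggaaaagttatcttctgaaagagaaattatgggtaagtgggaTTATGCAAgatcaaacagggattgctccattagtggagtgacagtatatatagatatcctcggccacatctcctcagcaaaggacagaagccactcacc
Cp: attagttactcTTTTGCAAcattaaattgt
The first base of the match lies 216 bases before the start in Lcn2, 75 in Ltf, 99 in Saa3 and 70 before the second start of Cp. A window of 250 bases held these letters in 6 of the 7 matched genes (Cp, Fth1, Lcn2, Ltf, Saa3 and Slpi), against 10.8% of the 27025 genes with a window and 9.56% of all 32851 windows. The 6 include genes that were low and genes that were not in co-cultured DA3 cells, and a match is not evidence of binding. Of the other motifs searched on both strands, the AP-1 letters TGANTCA were found in 1 member (Cp, 6.75% of all windows) and the hypoxia element ACGTG in 2 (Slpi and Tfrc, 16.6%). The STAT letters TTCNNNGAA (7.02% of all windows), the antioxidant element TGACNNNGC (10.2%) and the NF-kB motif (7.25%) were in none of the member windows. The search did not count overlaps between motifs.

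The arrays labelled MBA-15 alone went against their label. Epcam, the antigen of the separation, measured 5.58 and 5.19 for MBA-15 co-culture on the log2 RMA scale, 8.45 and 9.25 for labelled MBA-15 alone, 9.57 and 9.46 for DA3 alone and 9.30 and 9.38 for DA3 co-culture. The mean of 24 epithelial markers was 4.65 and 4.62, then 6.96 and 7.53, 8.21 and 8.18, and 7.75 and 7.97 in the same order, so that labelled MBA-15 alone stood between MBA-15 co-culture and DA3. The mean of 24 stromal markers was 7.84 and 7.51, 7.34 and 7.35, 5.06 and 5.13, and 6.00 and 5.59. These arrays are therefore called labelled MBA-15 alone throughout. Differences between MBA-15 and DA3 are described with MBA-15 co-culture, and for the genes named p-values from only the groups compared stand beside them where they change a call. As a reference for low signal, the 95th percentile of 1027 olfactory receptor genes was taken on each array (4.26 to 4.68 log2), and a gene is called above this reference only when both arrays of a group exceed it. Of 21 neutrophil and macrophage markers, with means of 3.82 to 4.18, only Cd68 was above it in all 4 groups and Ly6g in all but MBA-15 co-culture. Of 14 hepatocyte markers, with means of 3.78 to 4.15, only Apoa1 was above it, in DA3 alone.

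The ferroxidase gene Cp gave the widest difference among the 3 genes that defined the choice. Its level was 9.64 and 10.70 for DA3 alone and 5.62 and 6.26 for DA3 co-culture, a mean difference of -4.23 ± 0.52 log2 units (SE, n = 2 and 2), or 18.7-fold. Both DA3 co-culture arrays lay below both DA3 alone arrays and also below the MBA-15 co-culture arrays, which read 8.42 and 7.88. Within assay 3, the only assay number with an array of each kind, the difference was -5.07.

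Lcn2, the siderophore-binding protein, was 10.80 and 11.36 for DA3 alone and 7.15 and 8.76 for DA3 co-culture. The difference of -3.12 ± 0.64 was 8.72-fold, and the groups did not overlap. Within assay 3 it was -4.21. Ltf, the iron-binding milk protein, was 6.27 and 7.20 for DA3 alone against 4.33 and 4.80 for DA3 co-culture, a difference of -2.17 ± 0.45 or 4.49-fold, and -2.87 within assay 3. Only 1 of the 2 co-culture arrays exceeded the olfactory receptor reference for Ltf, so the fold for this gene is limited by the lower end of the scale.

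The ferroportin gene Slc40a1, which encodes the cell's iron exporter, was 4.93 and 6.47 for DA3 alone and 4.52 and 3.99 for DA3 co-culture, where neither array was above the reference. The difference was -1.45 ± 0.58, with no overlap, and -0.68 when the second DA3 alone array was left out. With Cp, Lcn2 and Ltf this made 4 of the 10 genes lower by over 1 log2 unit in DA3 co-culture, where 2.18% of all genes were that much lower; since 3 of the 4 were chosen on this contrast, nothing is read from the share. Without the second DA3 alone array 3 of the 10 were lower by that much.

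The group means of the remaining 6 genes differed by at most 0.43 log2 units between DA3 co-culture and DA3 alone, and these genes are described without a test because they share the contrast of the choice. Saa3 differed by 0.43 ± 0.58, Slpi by 0.24 ± 0.31, Tfrc by -0.19 ± 0.26 and Fth1 by -0.09 ± 0.20, each with overlapping arrays. Hp (0.32 ± 0.14) and Heph (0.38 ± 1.22) were higher on both co-culture arrays, but neither Heph group was above the reference and Hp in DA3 alone was above it on only 1 array. The genes for iron uptake and storage, Tfrc and Fth1, thus lay at 10.38 to 10.88 and at 11.66 to 12.05 on all 4 DA3 arrays. Fth1 has near-identical pseudogene copies, so its probe set may carry signal from more than 1 locus.

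Markers of the other line also moved between the DA3 groups. On a linear scale where DA3 alone is 0 and MBA-15 co-culture 100, the median of 15 stromal markers stood at 8.58 and 4.20 on the DA3 co-culture arrays. On the scale where MBA-15 co-culture is 0 and DA3 alone 100, the median of the 21 epithelial markers kept was 73.1 and 84.9. Cp stood at -25.5 and -22.6, Lcn2 at -8.32 and 7.03, and Ltf at 8.30 and 16.1. All 3 lay below the lowest single epithelial marker, which stood at 25.8 and 36.3 on the same arrays. Since the 3 were chosen for low values on these arrays, nothing is read from their place below the markers. The part of the stromal admixture in these values was not tested. In RNA of a whole fraction, fewer cells of a type and less RNA per cell cannot be told apart.

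**Figure D1:**
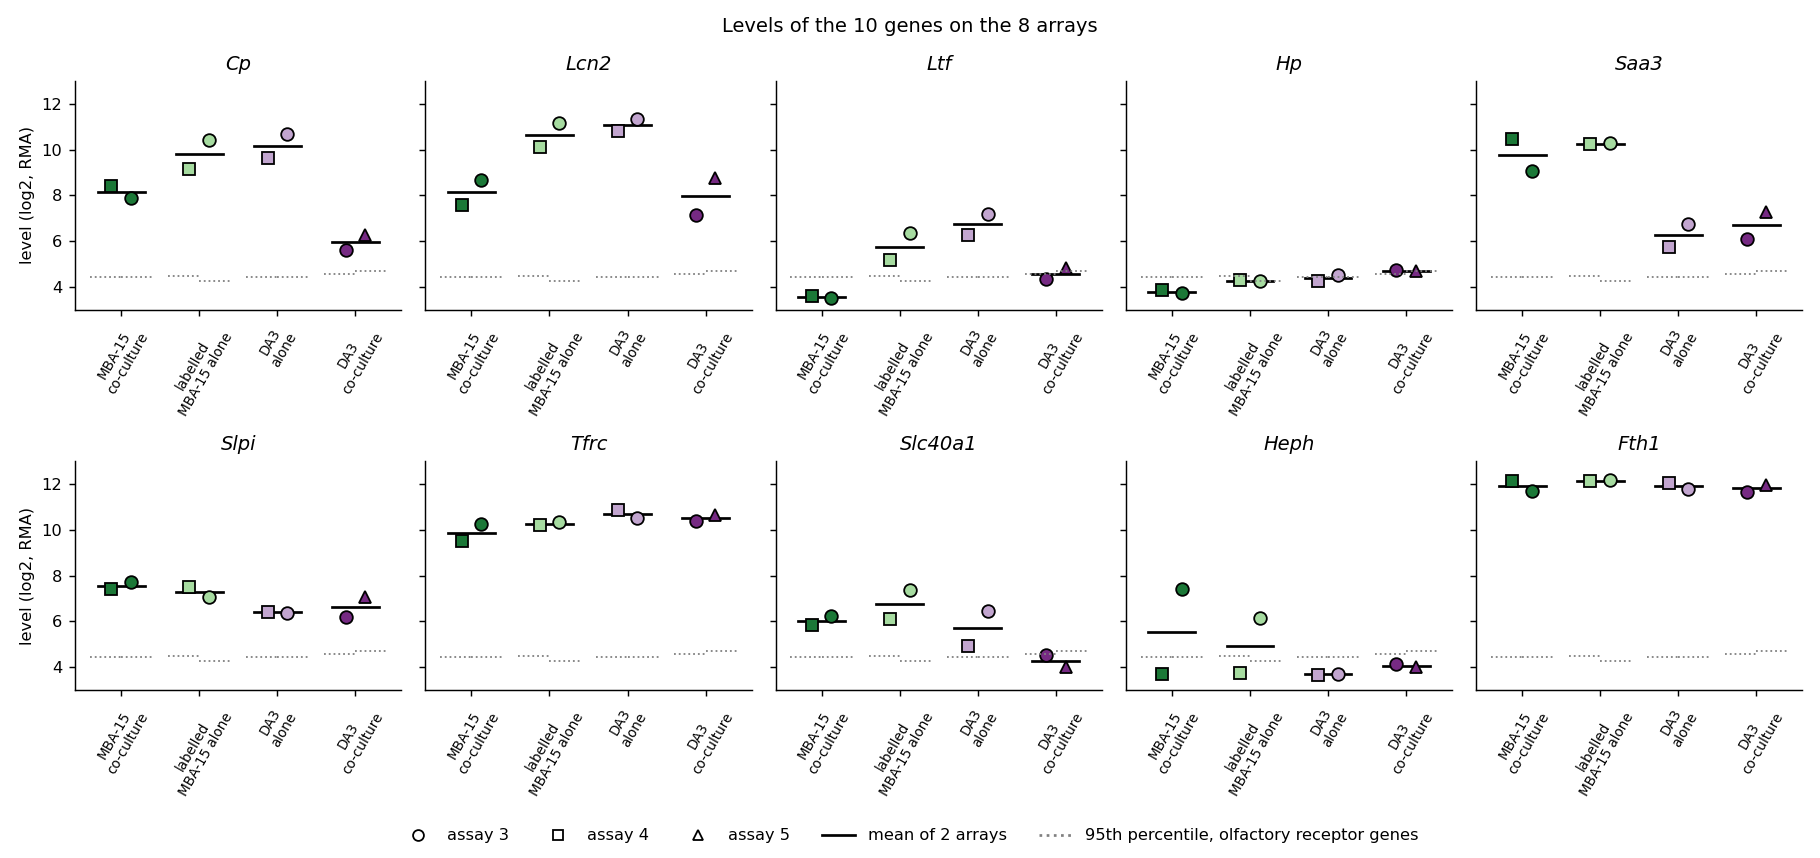
Level of each of the 10 genes on the 8 arrays (vertical axes, log2 RMA values) by group (horizontal axes), with points for arrays marked by assay number and bars for group means. Cp, Lcn2 and Ltf are high in DA3 alone and in labelled MBA-15 alone and low in DA3 co-culture, Saa3 is high in both MBA-15 groups, and Heph is high on the 2 assay 3 arrays of MBA-15.

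In MBA-15 cells, co-culture was set against labelled MBA-15 alone, which asks how stromal cells change beside the carcinoma cells and is limited by the epithelial markers described above. None of the 10 genes passed limma's moderated test at a Benjamini-Hochberg adjusted p of 0.05, where 0.848% of all genes did (169 of 19938, 0.0752% higher and 0.772% lower); at an unadjusted p under 0.05, 9.80% of all genes passed. Cp was 8.42 and 7.88 for MBA-15 co-culture against 9.16 and 10.44 for labelled MBA-15 alone, a difference of -1.65 ± 0.52 (limma adjusted p = 0.329). Lcn2 was 7.58 and 8.68 against 10.13 and 11.17, a difference of -2.52 ± 0.64 (adjusted p = 0.200), and Ltf was 3.61 and 3.50 against 5.16 and 6.34, a difference of -2.20 ± 0.45 (adjusted p = 0.119). The arrays of the groups did not overlap for any of the 3, nor for Hp (-0.49 ± 0.14, adjusted p = 0.254); 16.1% of all genes were lower without overlap. Within assays 3 and 4 the difference was -2.55 and -0.75 for Cp, -2.49 and -2.55 for Lcn2, and -2.84 and -1.55 for Ltf. Ltf was not above the reference in MBA-15 co-culture, so its differences are limited by the lower end of the scale.

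The calls in this comparison depended on how the spread was modelled and on which genes were kept. With the assay number as a block Lcn2 passed (limma adjusted p = 0.0178). With genes above the median level only or with a mean-variance trend, Lcn2 (0.0426 and 0.0360) and Ltf (0.0215 and 0.0113) passed. That filter used the mean over all arrays, including DA3 alone, which served to choose Ltf. Ltf means were 6.73 for DA3 alone and 5.75 for labelled MBA-15 alone. They were 4.57 for DA3 co-culture and 3.56 for MBA-15 co-culture, neither above the reference. Nothing is therefore read from the Ltf call under the filter. Epithelial markers moved the same way as Lcn2 and Ltf: Epcam differed by -3.46 ± 0.27 (limma adjusted p = 0.00713) in the same comparison. On the linear scale from MBA-15 co-culture (0) to DA3 alone (100), the 21 epithelial markers had a median of 35.8 (lowest 20.9, highest 56.8) on the first labelled MBA-15 alone array and 57.5 (46.5 and 81.9) on the second. Cp stood at 30.3 and 117, Lcn2 at 43.0 and 105, and Ltf at 23.9 and 69.3. All 3 were within the markers' span on the first array, while on the second Cp and Lcn2 exceeded it and Ltf lay within it. DA3 alone, the 100 end, also served to choose the 3, and the markers were kept for their difference between the ends. Nothing is read from these places. The part of DA3 RNA in these differences was not tested.

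The other 6 relatives had smaller or less even differences between MBA-15 co-culture and labelled MBA-15 alone. Saa3 was 10.48 and 9.08 against 10.23 and 10.27 (-0.47 ± 0.58), and the second co-culture array alone set the sign, since the difference was 0.23 without it. Slpi (0.29 ± 0.31), Tfrc (-0.39 ± 0.26), Slc40a1 (-0.72 ± 0.58) and Fth1 (-0.22 ± 0.20) had overlapping arrays and adjusted p from 0.720 to 0.824 by limma. Heph was 3.68 and 7.39 against 3.72 and 6.14, so each group held an array below the reference and an array far above it.

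Heph, the membrane-bound ferroxidase, divided the MBA-15 arrays by assay number and not by culture. It was higher on the assay 3 than on the assay 4 array by 3.71 log2 units in MBA-15 co-culture and by 2.42 for labelled MBA-15 alone, and by 0.05 for DA3 alone. Of 19938 genes, 3 were higher by over 2 log2 units on assay 3 in both MBA-15 groups (Vnn1, Il1f9 and Heph) and 0 were lower by as much in both. This count was made after the Heph values had been seen. No mean of Heph over the MBA-15 arrays describes either array, and no comparison with MBA-15 passed the test for it.

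Between the lines, MBA-15 co-culture against DA3 alone, 12.6% of all genes passed the limma test, 6.08% higher and 6.47% lower in MBA-15. Line and culture both differ in this comparison, so their parts cannot be told apart in it. Of the 7 relatives, 2 passed: Saa3 was higher and Hp lower. Saa3, an acute-phase apolipoprotein made outside the liver as well, was 10.48 and 9.08 for MBA-15 co-culture and 5.74 and 6.76 for DA3 alone. The difference was 3.53 ± 0.58 (limma adjusted p = 0.0104), 11.6-fold, with no overlap and with 2.33 and 4.74 within assays 3 and 4. Without the first DA3 alone array it was 3.03 and missed the threshold (adjusted p = 0.0797).

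Hp differed by -0.59 ± 0.14 (limma adjusted p = 0.0352), from 4.24 and 4.50 for DA3 alone to 3.84 and 3.72 for MBA-15 co-culture. Its signal in MBA-15 co-culture was not above the reference. The call was lost without either array of any group but DA3 co-culture (adjusted p from 0.0618 to 0.221), and also with only the arrays of these groups (adjusted p = 0.0762) or with the assay number as a block (0.0708). Slpi, the secreted inhibitor of leukocyte proteases, was 7.39 and 7.73 for MBA-15 co-culture and 6.40 and 6.37 for DA3 alone, a difference of 1.17 ± 0.31 (adjusted p = 0.0572). Its arrays did not overlap, and it passed with only these groups (0.0166) and with the assay block (0.0241).

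Tfrc was 9.52 and 10.24 for MBA-15 co-culture against 10.88 and 10.53 for DA3 alone, a difference of -0.83 ± 0.26 (limma adjusted p = 0.0964). Slc40a1 (0.31 ± 0.58), Heph (1.85 ± 1.22) and Fth1 (0.01 ± 0.20) had overlapping arrays in this comparison, with adjusted p of 0.859, 0.465 and 0.987. For the genes of the choice, which share the DA3 alone arrays with it, the differences are a description only: -2.02 log2 units for Cp, -2.95 for Lcn2 and -3.18 for Ltf. The Ltf value is limited by MBA-15 co-culture, where Ltf was not above the reference. DA3 alone thus held the highest group mean of Cp, Lcn2 and Ltf among the 4 groups, but its arrays overlapped those of labelled MBA-15 alone for each of the 3.

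The order of the group means differed among the genes. Cp ran in the order DA3 alone (10.17 ± 0.75, SD), labelled MBA-15 alone (9.80 ± 0.90), MBA-15 co-culture (8.15 ± 0.38) and DA3 co-culture (5.94 ± 0.45). Lcn2 had the same order, but its lowest pair, 8.13 ± 0.78 and 7.95 ± 1.14, overlapped. For Ltf that pair was turned round, with 3.56 ± 0.07 for MBA-15 co-culture and 4.57 ± 0.34 for DA3 co-culture. Neither of these 2 groups was above the reference for Ltf, so their order lies at the lower end of the scale. Saa3 ran from labelled MBA-15 alone (10.25 ± 0.03) and MBA-15 co-culture (9.78 ± 0.99), which overlapped, to DA3 co-culture (6.68 ± 0.81) and DA3 alone (6.25 ± 0.72), which also overlapped. Slpi had means from 7.56 ± 0.24 for MBA-15 co-culture to 6.39 ± 0.03 for DA3 alone, and Tfrc from 10.71 ± 0.25 for DA3 alone to 9.88 ± 0.51 for MBA-15 co-culture. Fth1 had the narrowest span of means, 11.82 to 12.15, and neighbours in its order overlapped.

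The EpCAM-negative and EpCAM-positive fractions of the co-culture, MBA-15 co-culture against DA3 co-culture, differed in 12.8% of all genes, 8.28% higher and 4.48% lower in MBA-15 (64.9% of the calls higher, and 52.1% after a further quantile normalization). This comparison shares its MBA-15 arrays with the one between the lines, so the values are given side by side and not pooled. Saa3 was again higher in MBA-15, by 3.11 ± 0.58 (limma adjusted p = 0.0178), against 6.10 and 7.25 for DA3 co-culture, and within assay 3 by 2.98. It missed the threshold with only the arrays of these groups (0.0745), without the first MBA-15 co-culture array (2.41, 0.0581) and without the first DA3 co-culture array (2.53, 0.0622). Hp differed by -0.92 ± 0.14 (adjusted p = 0.00771), from 4.71 and 4.68 for DA3 co-culture, the only group in which both arrays exceeded the reference, and it missed the threshold with the assay number as a block (0.0593).

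Slc40a1 was 5.82 and 6.21 for MBA-15 co-culture and 4.52 and 3.99 for DA3 co-culture, a difference of 1.76 ± 0.58 (limma adjusted p = 0.106) with no overlap. It passed with only these groups (0.0411), the assay block (0.0402), the mean-variance trend (0.0303) and genes above the median level (0.0341). Slpi (0.93 ± 0.31, adjusted p = 0.107) and Tfrc (-0.64 ± 0.26, adjusted p = 0.172) did not overlap and did not pass, while Slpi passed with the assay block (0.0475). Heph (1.47 ± 1.22) and Fth1 (0.10 ± 0.20) overlapped. For the genes of the choice, Cp was higher in MBA-15 co-culture than in DA3 co-culture by 2.21, Ltf differed by -1.01, and Lcn2, at 0.17, overlapped. The Lcn2 value moved to 1.43 with the assay number as a block and lay between -0.63 and 0.98 when 1 array was left out.

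**Figure D2:**
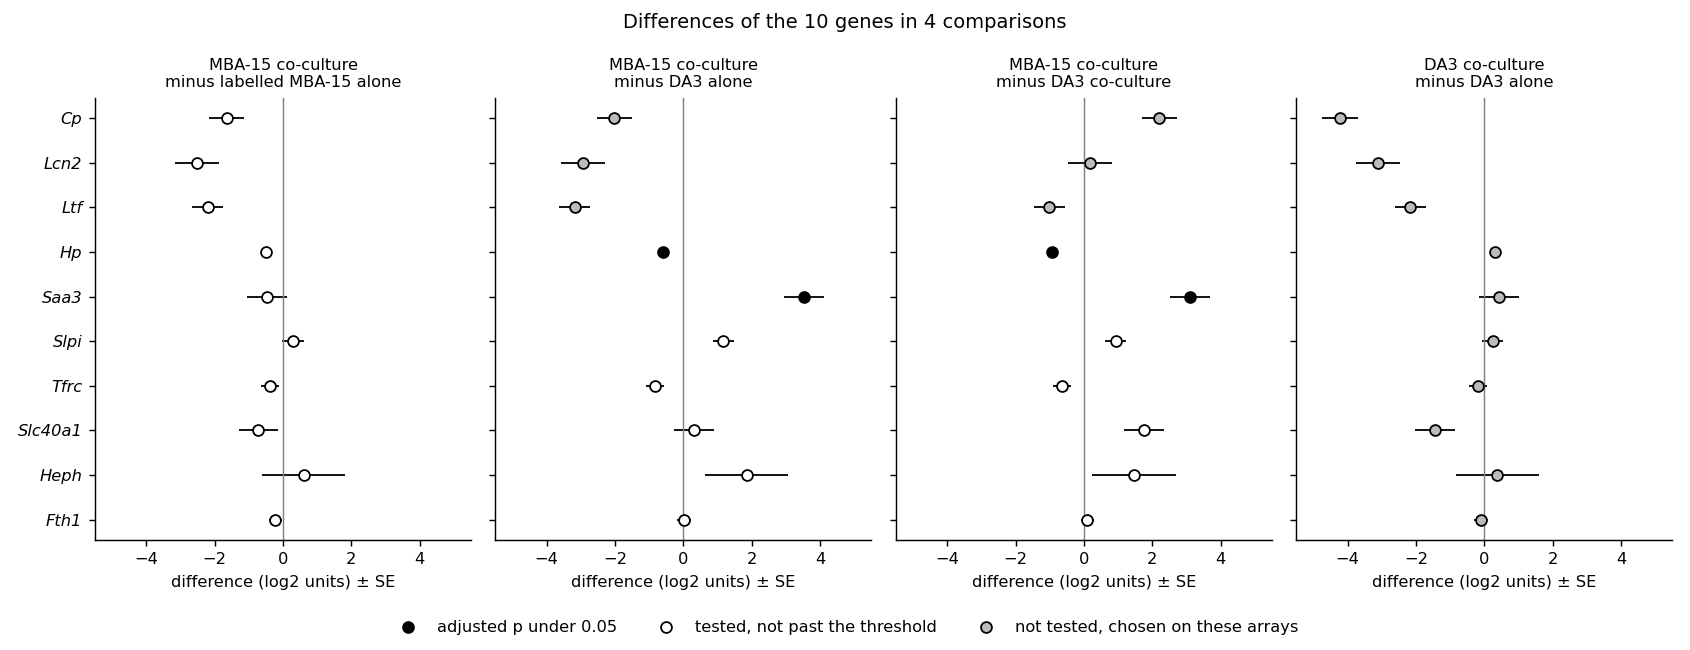
Difference in log2 units (horizontal axes, with standard errors) of the 10 genes in the 4 comparisons, with filled points for those that passed limma's test, open points for those that did not and grey points where no test was made because the genes were chosen on these arrays. Cp, Lcn2 and Ltf lie left of 0 in DA3 co-culture against DA3 alone and in MBA-15 co-culture against labelled MBA-15 alone, and Saa3 lies at 3.53 and 3.11 in the comparisons of MBA-15 co-culture with DA3.

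Other genes of iron handling and of the acute phase were taken from 6 lists with 141 measured genes of 156 listed. In DA3 co-culture against DA3 alone 0 of the 141 passed limma's test, where 0.0401% of all genes did, and 18 of the 141 had an unadjusted p under 0.05, against 14.9% of all genes. The median change of the listed genes was 0.09, beside 0.04 over all genes. The haem and folate carrier gene Slc46a1 was 7.53 and 7.65 for DA3 alone and 6.08 and 6.83 for DA3 co-culture, a difference of -1.14 ± 0.24 (adjusted p = 0.173). Of the 2 genes of each list with the widest difference here, Slc46a1, Fbxl5, Ireb2, Tlr4, Btn1a1, Clu and Grn were lower in DA3 co-culture. Hmox1, Mt1, Mt2, Il11 and Cubn were higher. Means for DA3 alone and DA3 co-culture were 4.30 and 5.29 for Il11, 4.26 and 5.20 for Cubn, and 5.97 and 4.98 for Tlr4. Neither Il11 nor Cubn was above the reference in DA3 alone. The 3 measured C/EBP genes of the lists are named after their values were seen. Cebpb was 7.61 and 7.30 in DA3 alone against 7.42 and 7.17 in DA3 co-culture (-0.17 ± 0.43, limma adjusted p = 0.855), and Cebpd was below the reference on all 4 arrays. Cebpe was 4.31 and 4.43 against 4.62 and 4.97 (0.43 ± 0.16, adjusted p = 0.302), with no overlap, and was above the reference only in DA3 co-culture.

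Of the 29 genes of iron uptake, storage and export, 5 were higher and 1 lower in MBA-15 co-culture than in DA3 alone, and 7 higher and 0 lower than in DA3 co-culture. That is 20.7% and 24.1% of the list, beside 12.6% and 12.8% of all genes, with median differences of 0.29 and 0.25 beside 0.004 and -0.065. Leaving out 1 array moved the 5 higher to between 2 and 7 and the 7 higher to between 2 and 6. Hmox1, which encodes the haem-degrading enzyme haem oxygenase 1, was 8.53 and 8.42 for MBA-15 co-culture, 6.59 and 5.92 for DA3 alone and 6.93 and 7.18 for DA3 co-culture. The differences were 2.21 ± 0.30 and 1.42 ± 0.30 (limma adjusted p = 0.00503 and 0.0283), and the second was lost when any 1 of the 4 arrays compared was left out (0.0650 to 0.0969) or after a further quantile normalization (0.0519). Steap2, a metalloreductase, was higher by 1.62 and 1.77, and its difference from DA3 alone missed the threshold without either DA3 alone array (0.0533 and 0.0740). Slc11a2, the iron importer DMT1, was higher by 1.41 and 1.40, and its difference from DA3 co-culture was lost without the second MBA-15 co-culture array (0.0920) or the first DA3 co-culture array (0.0724), under the assay block (0.0526) and with only the groups compared (0.0644). Slc46a1 was the gene that was lower, at 6.12 and 6.25 for MBA-15 co-culture (-1.41 ± 0.24, adjusted p = 0.0115), and it missed the threshold without the first MBA-15 co-culture array (0.0515) or either DA3 alone array (0.0727 and 0.0866).

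Of 18 measured genes that control iron, 0 passed in MBA-15 co-culture against DA3 alone, beside 12.6% of all genes. Against DA3 co-culture 4 were higher and 2 lower (33.3% of the list, beside 12.8% of all genes). The 4 higher became 0 with the assay number as a block or the mean-variance trend and 1 with only the groups compared, and against DA3 alone 2 were lower with the assay block. The lower ones were the hepcidin genes Hamp and Hamp2, at -1.25 ± 0.31 and -1.39 ± 0.32 (limma adjusted p = 0.0466 and 0.0364). Leaving out any 1 DA3 alone array, the second MBA-15 co-culture array or the first DA3 co-culture array ended both calls (adjusted p from 0.0650 to 0.174). The Hamp call was also lost with the assay block (0.204), the replicate block (0.0717) and a further quantile normalization (0.0538), and the Hamp2 call with only the groups compared (0.126). Hamp and Hamp2 are near-identical copies whose signal may be shared, and Hamp was above the reference only in DA3 co-culture, at 4.56 and 4.77. Of 19 receptors and partners of the secreted proteins, 0 passed against DA3 alone, beside 12.6% of all genes. Against DA3 co-culture 1 was lower (5.26%, beside 4.48% of all genes), and 0 with only the groups compared. Many of the 19, among them Lrp2, Cd163, Elane and Mmp8, were not above the reference in any group.

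Of 24 measured acute-phase genes, 5 were higher and 0 lower in MBA-15 co-culture than in DA3 alone, and 4 higher and 0 lower than in DA3 co-culture. Over all genes 6.08% were higher and 6.47% lower in the former comparison, and 8.28% and 4.48% in the latter. Many of the listed genes, among them Saa1, Crp, Fga and Itih4, were not above the reference in any group and had little room to be lower. The metallothionein gene Mt2, whose product binds zinc and copper, was 11.14 and 10.97 for MBA-15 co-culture, 6.75 and 6.85 for DA3 alone and 7.02 and 8.38 for DA3 co-culture. It differed by 4.26 ± 0.42 and 3.36 ± 0.42 (limma adjusted p = 0.00144 and 0.00443), and Mt1, a close relative, by 3.35 and 2.41. Lbp, which presents bacterial lipopolysaccharide to its receptor, was higher by 2.96 ± 0.43 and 3.15 ± 0.43, at 8.88 and 8.51 for MBA-15 co-culture against 5.05 and 6.42 for DA3 alone. The pattern-recognition gene Ptx3, at 7.07 and 6.25 for MBA-15 co-culture, was not above the reference in either DA3 group.

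Of 27 measured inducers of the acute phase and their receptors, 6 were higher and 1 lower in MBA-15 co-culture than in DA3 alone, and 8 higher and 2 lower than in DA3 co-culture. That is 25.9% and 37.0% of the list, beside 12.6% and 12.8% of all genes. The 2 lower were Lif and Il11, and the Il11 call was lost with only the groups compared (0.160) and without any 1 array but the second of DA3 co-culture (0.0616 to 0.185). Il6, the main inducing cytokine, was 6.41 and 6.72 for MBA-15 co-culture and 6.16 and 5.62 for labelled MBA-15 alone, and was not above the reference in DA3. It differed from DA3 co-culture by 2.95 ± 0.21 (limma adjusted p = 0.000659), and its adjusted p against DA3 alone was 0.000374. The receptor chains Il6st (2.61 and 3.21) and Osmr (2.51 and 2.70) and the lipopolysaccharide receptor Tlr4 (1.78 and 2.77) were higher in MBA-15 co-culture in the same pair of comparisons, and the Osmr difference from DA3 alone missed the threshold without the first DA3 alone array (0.0549). Lif, a cytokine that also signals through Il6st, went the other way, with 4.84 and 4.86 for MBA-15 co-culture, 7.15 and 7.14 for DA3 alone and 7.79 and 7.30 for DA3 co-culture.

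Among 27 measured mucosal and milk defence genes, 1 was higher and 4 lower in MBA-15 co-culture than in DA3 alone, and 1 higher and 3 lower than in DA3 co-culture. That is 18.5% and 14.8% of the list, near the 12.6% and 12.8% of all genes. Wfdc2, a secreted protein of the family of Slpi, differed by -4.05 ± 0.18 and -3.69 ± 0.18 (limma adjusted p = 0.000161 and 0.000345), and the epithelial mucin gene Muc1 by -3.55 and -3.20. In DA3 co-culture against DA3 alone they differed by -0.36 ± 0.18 and -0.35 ± 0.20 (adjusted p = 0.393 and 0.449). The widest differences of the list in that comparison were those of Btn1a1, a protein of the milk fat globule, and Clu, which encodes the secreted chaperone clusterin. Btn1a1 was 4.76 and 5.39 for DA3 alone and 3.97 and 3.98 for DA3 co-culture, where it was not above the reference (-1.10 ± 0.29, adjusted p = 0.215). Clu was 6.02 and 6.26 against 5.42 and 5.60 (-0.63 ± 0.18, adjusted p = 0.230). Neither overlapped and neither passed. Xdh, the xanthine oxidoreductase of the milk fat globule, was the gene that was higher, by 3.41 and 3.35.

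Of the 141 listed genes 3 were lower and 0 higher in MBA-15 co-culture than in labelled MBA-15 alone, where 0.772% of all genes were lower and 0.0752% higher: Wfdc2 (-3.46 ± 0.18, limma adjusted p = 0.00236), Muc1 (-2.68 ± 0.20, 0.00713) and Lif (-1.43 ± 0.20, 0.0328). All 3 were high in DA3 cells, and the epithelial markers given above moved the same way. With only the arrays of these groups Wfdc2 passed (0.0317) and Muc1 (0.0602), Lif (0.0929) and Epcam (0.0602) did not. The Lif call was lost without either array of any group but DA3 co-culture (0.0591 to 0.244), with the replicate block (0.0722) and after a further quantile normalization (0.0518), and that of Epcam without the second MBA-15 co-culture array (0.0693).

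**Figure D3:**
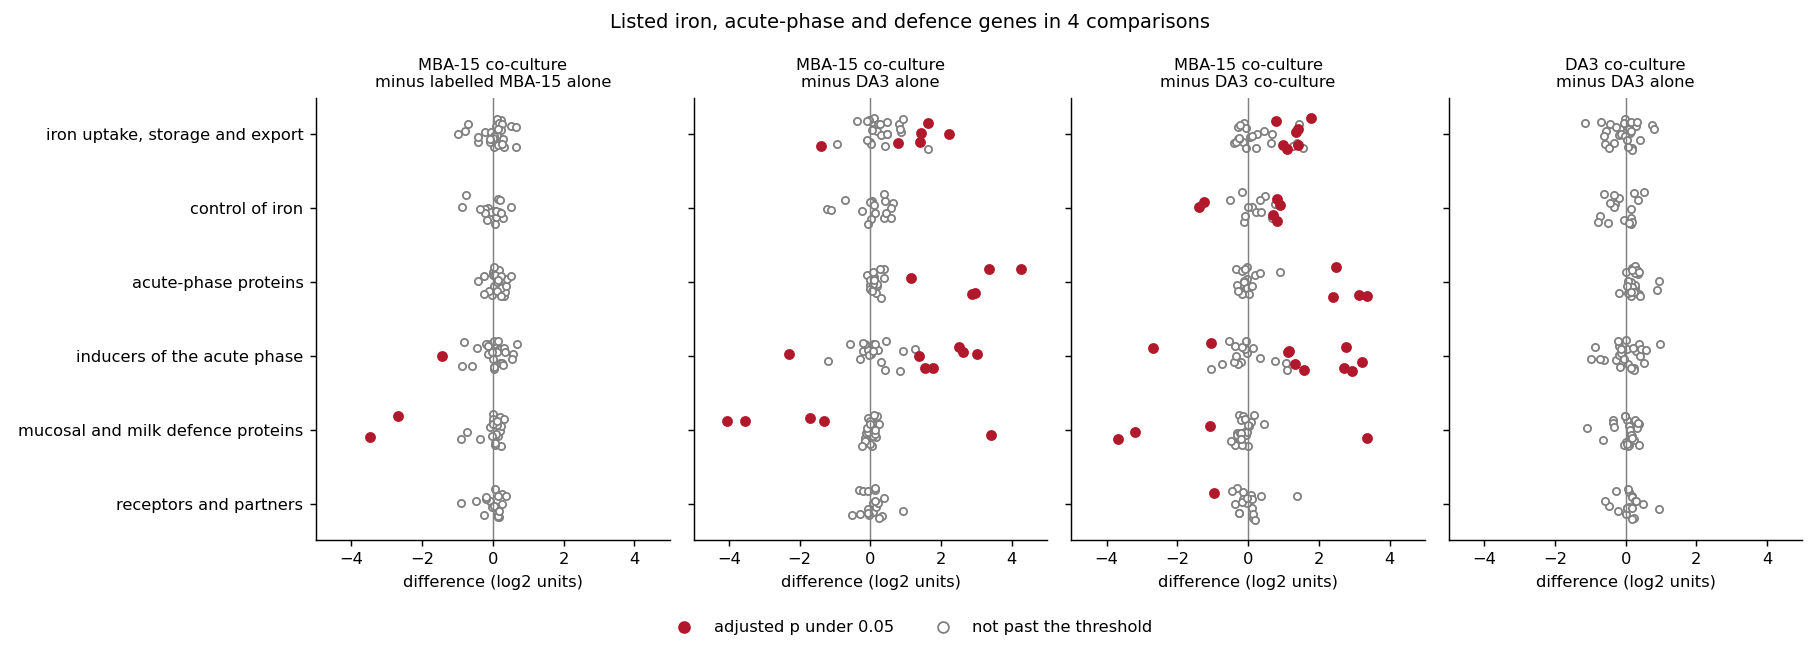
Difference in log2 units (horizontal axes) of each measured gene of the 6 lists in the 4 comparisons, with filled points for genes that passed limma's test. In DA3 co-culture against DA3 alone 0 genes passed, and in the comparisons of MBA-15 co-culture with DA3 alone and with DA3 co-culture 17 and 24 were higher and 6 and 8 lower.

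The genes whose profiles over the 8 arrays were most like those of Cp, Lcn2 and Ltf were found among 3458 genes whose group means ranged over at least 1 log2 unit, by the root mean square difference after each gene's own mean was removed. For Ltf these were Lypd6b (0.19 log2 units), Parm1 (0.27) and Celsr1 (0.29), for Lcn2 they were Stra6 (0.49), Ly6g2 (0.52) and Aspa (0.55), and for Cp they were Rnd3 (0.72), Il33 (0.76) and Ctns (0.78). Lcn2 ranked 7 for Cp, and Ltf ranked 7 for Lcn2. In the other direction Cp ranked 33 for Lcn2 and 1477 for Ltf, and Lcn2 ranked 163 for Ltf. The profile of Cp had its lowest values in DA3 co-culture, that of Ltf in MBA-15 co-culture, and that of Lcn2 was low in both.

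Stra6, the receptor for retinol-binding protein, was 7.71 and 8.17 for DA3 alone and 4.10 and 4.50 for DA3 co-culture, and 4.09 and 4.27 for MBA-15 co-culture. Il33, an interleukin of the IL-1 family, was 6.10 and 7.09 for DA3 alone and 4.02 and 4.10 for DA3 co-culture. Both were picked for their likeness to genes chosen on the same arrays, so their values describe the profile and add no support to it.

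**Figure D4:**
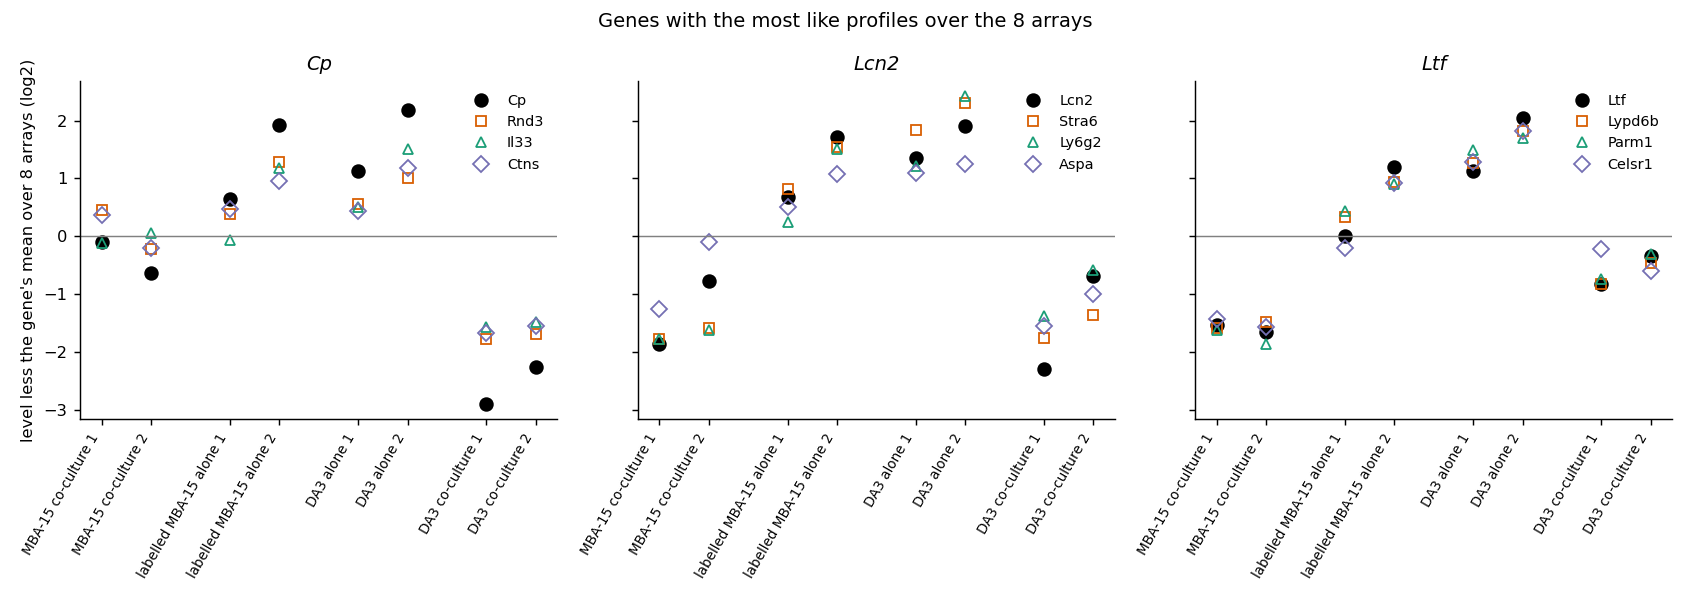
Level less each gene's mean over the 8 arrays (vertical axes, log2 units) on each array (horizontal axes) for Cp, Lcn2 and Ltf and the 3 genes most like each. Ltf and its 3 like genes differ by 0.19 to 0.29 log2 units in root mean square, and Cp and its like genes by 0.72 to 0.78.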

How the data were processed

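The deposited table holds log2 expression values, 1 for each probe set and array, which the authors made with RMA in Partek 6.5, per the submitters' processing notes; the parameters are not given in the sources used here. RMA normalizes between arrays, so a difference is relative to the other genes of an array. The table holds 35556 probe sets on 8 arrays, of which 21789 carry 1 gene symbol in the platform annotation, 1621 several and 12146 are not listed there. Of several probe sets of a gene the one with the highest mean was used, giving 19938 genes, and 0 were removed for low signal. Array medians lay between 4.48 and 4.64, and at most 2 values were identical between any 2 arrays. Their number, 2 in a group, limits the precision.

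Groups came from the sample titles. Group means were fitted to all 8 arrays with limma 3.58.1 (R 4.3.3; lmFit and eBayes, 4 residual and 2.6 prior degrees of freedom), tested two-sided and adjusted by Benjamini-Hochberg over 19938 genes, with 0.05 as the threshold. The code was tested on simulated data. Array numbers shared between groups were not taken to pair the arrays: there were only 2 pairs, and deviations of same-numbered arrays correlated at 0.01 to 0.31. In 3 groups array 1 is assay 4 and array 2 is assay 3, so a pairing by assay is possible, and values with the assay number as a block are given where they change a call. The members and the gene lists were chosen with earlier results of these data known. No p is given for a member in DA3 co-culture against DA3 alone, nor for Cp, Lcn2 and Ltf in comparisons that use those arrays. Their p-values against labelled MBA-15 alone still draw the spread from all 8 arrays, the DA3 arrays included. Beside the members, the genes named are, per list, comparison and direction, up to 3 with the widest difference among those that passed, or 2 where none passed, and the 3 of most like profile. Promoter windows are RefSeq's for GRCm38.p6, matched by symbol. Alternatives were a block by assay or replicate number, other filters, probe set rules and normalizations, a mean-variance trend, fits to the compared groups only and arrays left out in turn.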

Additional observations from a re-analysis of the deposited data

Results flagged for a closer look

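For 3 genes the arrays of the MBA-15 groups moved one way without overlap between co-culture and alone and those of the DA3 groups the other way, and the difference between the effects was not tested. Only the members and the listed genes named by the rule were searched. The share of all genes with such a pattern was not counted, so nothing is read from the number found. Hp, the haptoglobin gene, differed by -0.49 log2 units in MBA-15 co-culture against labelled MBA-15 alone and by 0.32 in DA3 co-culture against DA3 alone, which is -0.81 between the effects, with signal near the olfactory receptor reference throughout. Lif differed by -1.43 and 0.40, which is -1.83 between them, and the epithelial markers of labelled MBA-15 alone moved with the first value. Neo1, a receptor that takes part in the control of hepcidin, differed by 0.52 and -0.18, which is 0.70 between the effects.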

How the results depend on the processing

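Of the comparisons' counts 174 stayed within 1.5 times under an alternative, 5 rose and 14 fell past 1.5 times. Single-gene values were tallied together with the counts per list, and of these 2311 stayed the same, 148 weakened, 62 strengthened, 89 moved and 13 changed sign. To weaken or strengthen means to lose or gain a call for a gene, and to change past 1.5 times for a count. Values without a call, of untested genes or within 1 assay, were the same up to 1 SD from the main value and moved beyond it. For the 10 members in MBA-15 co-culture against labelled MBA-15 alone the count of 0 became 1 (Lcn2) with the assay block and 1 (Lcn2, limma adjusted p = 0.0238) with the replicate block, and 2 with the mean-variance trend or with genes above the median level; it was 0 with every array left out. The 2 relatives called against DA3 alone became 1 with the replicate block (Hp, 0.0596) and 0 to 3 leaving out 1 array; against DA3 co-culture the 2 ranged from 1 to 3. Listed genes lower than in labelled MBA-15 alone went from 3 to 1 with only the compared groups. Against DA3 co-culture, listed genes higher went from 24 to 15 with only those groups, and those lower from 8 to 5 with only those groups or genes above the median level, and to between 5 and 9 leaving out 1 array. In DA3 co-culture against DA3 alone 1 listed gene was higher with the trend. Members with small differences changed sign: against labelled MBA-15 alone Saa3 (-1.17 to 0.23, the latter without the second MBA-15 co-culture array) and Heph (-1.25 without that array, -0.61 without the first labelled MBA-15 alone array, and up to 2.46); against DA3 alone Slc40a1 (-0.46 without the first DA3 alone array, up to 1.09), Heph (-0.005 without the second MBA-15 co-culture array, up to 3.70) and Fth1 (-0.04 with centred arrays, -0.20 without the first MBA-15 co-culture array -0.13 without the second DA3 alone array, and up to 0.22); against DA3 co-culture Heph (-0.38 without the second MBA-15 co-culture array, up to 3.33) and Fth1 (-0.11 without the first MBA-15 co-culture array -0.06 without the first DA3 co-culture array, and up to 0.31). Of other listed genes Agt (-0.90 to 0.042, the latter without the second labelled MBA-15 alone array) and Grn (-2.07 to 0.27, the latter without the second MBA-15 co-culture array) did so against labelled MBA-15 alone. Apart from arrays left out or effects of fewer genes and samples tested, the cause was not tested.

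Over all genes, the calls against labelled MBA-15 alone went from 169 to 28 with only the compared groups, 265 with genes above the median level, 326 with the trend and 13 to 198 with 1 array left out. Against DA3 alone they went from 2503 to between 995 and 2870 with 1 array left out, and against DA3 co-culture from 2545 to 1123 with only those groups and to 1642 without the second MBA-15 co-culture array. In DA3 co-culture against DA3 alone the 8 calls became 0 with the assay block or only the compared groups, 3 with the replicate block, 1 after quantile normalization, 14 with centred arrays, 74 with genes above the median level, 120 with the trend and 0 to 3 with 1 array left out. Centring arrays on their medians moved the median of all genes against labelled MBA-15 alone from 0.04 to 0.15. Untested values of the genes chosen kept their sign in DA3 co-culture, at -4.84 for Cp, -4.38 for Lcn2 and -2.74 for Ltf with the assay block. In that fit the assay 3 array alone stands for DA3 co-culture, for these values and for the calls above. Signal near the olfactory receptor reference limits Hp, Heph, Ltf and Slc40a1.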

Other observations

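In DA3 co-culture, several genes that were high in MBA-15 co-culture stood at different places between the lines. On a linear scale where DA3 alone is 0 and MBA-15 co-culture 100, Hmox1 stood at 15.8 and 23.9 on the DA3 co-culture arrays and Mt1 at 1.98 and 22.6. Mt2 stood at 0.912 and 11.0, Saa3 at -1.34 and 7.86, and Lbp at -2.17 and -4.86. The median of the 15 stromal markers kept for their difference between these end groups was 8.58 and 4.20 on the same arrays. Single markers of the 15 ran from 4.95 to 35.6 and from -0.51 to 20.3. Hmox1 was above the median marker on both arrays, within the span of single markers on the first and above it on the second; the part of stromal admixture was not tested.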
